A study of Homo sapiens with 5 samples.

Results

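FAM111B, PTPRH, YIPF2, ZCWPW1, JKAMP, CEMIP2, GSKIP and METTL9 are 8 human genes that lay on 1 side of the control array after each of 3 LYNX1 knockdowns in pancreatic cancer cells. They were chosen by the array values of these 3 knockdowns, which had to lie on the same side of the control in each, so the directions and sizes of those differences are a description here and carry no test. The rule states no minimum size. The platform annotation gave 10 probes for the 8 genes, of 48106 probes and 20043 genes measured. RNA came from 5 cultures of 2 established lines from human pancreatic ductal adenocarcinoma, each hybridised to 1 Illumina BeadChip. Miapaca cells received an siRNA against the LYNX1 open reading frame (ORF), an siRNA against its 3′ untranslated region (3UTR) or a non-targeting control siRNA. BXPC3 cells received the ORF siRNA or the non-targeting control. Per the labels, Miapaca cultures were transfected at 60 pM with 4 µl of RNAiMAX and BXPC3 cultures at 200 nM with 14 µl of Xtreme gene9, and RNA was taken after 72 h. Line, dose and reagent therefore change together and cannot be told apart.

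Each group held 1 array, so differences have no error estimate and no p-value, and nothing beyond the number of arrays can set their precision. Where the text gives 3 differences in a row, they stand in the order Miapaca ORF, Miapaca 3UTR and BXPC3 ORF siRNA, each minus the control array of its line, on the log2 scale. In whole cultures, fewer cells that hold a transcript and less of it in each cell cannot be told apart. Mean bead intensity was 355 and 344 on the Miapaca ORF and 3UTR arrays, against 463 on the Miapaca control array. It was 361 on the BXPC3 ORF array and 366 on the BXPC3 control array. A probe counted as detected where its deposited detection p was under 0.01, which held for 16622 to 18205 probes per array. LYNX1 itself was not detected on any of the 5 arrays by either of its probes, so knockdown of the target could not be checked. All 6 epithelial markers were detected on both BXPC3 arrays. On the 3 Miapaca arrays KRT8, KRT18 and KRT19 were detected, and KRT7, EPCAM and CDH1 were not. KRT8 was brighter in Miapaca, at 4528 to 6940, than on the BXPC3 ORF and control arrays, at 1460 and 1339. The mesenchymal markers were split. VIM read 16500 to 19420 in Miapaca and 198.9 and 154 in BXPC3. CDH2 was detected in BXPC3 alone, at 157.2 and 140.2, and ZEB1 was not detected on any array. SMAD4 was detected on the Miapaca arrays and not in BXPC3, while MTAP and CDKN2A were not detected on any array. Of 5 acinar and endocrine markers none was detected on any array. Of 5 fibroblast markers, 0 to 2 were detected per array, COL1A2 being the bright one in Miapaca at 1962 to 2413. Of 5 blood and endothelial markers only CD14 was detected, on every array at 149 to 249.5.

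The 8 genes belong to no single pathway. LYNX1 is a membrane-anchored Ly6 protein known for binding nicotinic acetylcholine receptors. FAM111B carries a trypsin-like protease domain and is known as a gene whose transcript varies with the cell cycle. PTPRH is a receptor-type tyrosine phosphatase of gut epithelium, YIPF2 a multi-pass protein of the Golgi, and JKAMP a membrane protein of the endoplasmic reticulum that links the proteasome to degradation of misfolded proteins and binds the kinase JNK1. CEMIP2, also called TMEM2, spans the plasma membrane and was described in mouse as a cell surface hyaluronidase. ZCWPW1 reads methylated histone H3 and acts in meiotic DNA repair in mouse. GSKIP binds the kinase GSK3B and anchors protein kinase A, and METTL9 methylates histidine in proteins.

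The genes split evenly by direction. The 4 genes PTPRH, YIPF2, ZCWPW1 and CEMIP2 were higher with siRNA in all 3 comparisons, beside 20% of genes, and the 4 genes FAM111B, JKAMP, GSKIP and METTL9 were lower, beside 20.1%. Of all 9399 genes that could be compared in all 3, 3771 lay on 1 side of their control throughout, which is 40.1%. Differences of at least 2-fold, lower bounds included, were found for 7 of the 8 genes with the ORF siRNA in Miapaca, beside 10.6% of all genes compared, and YIPF2 had a lower bound under that size. With the 3UTR siRNA in Miapaca 8 of 8 reached that size, beside 8.86% of all genes. With the ORF siRNA in BXPC3 3 of 8 did, beside 1.09%. These comparisons chose the genes, so nothing is read from the shares. All 8 genes passed the filter on detection in each comparison. Of the 10 probes 4 were detected on all 5 arrays, 3 on 4 arrays, 2 on 3 arrays and 1 on a single array. The ORF and 3UTR arrays in Miapaca also share their control array, and a high or low reading there moves both differences the same way.

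**Figure D1:**
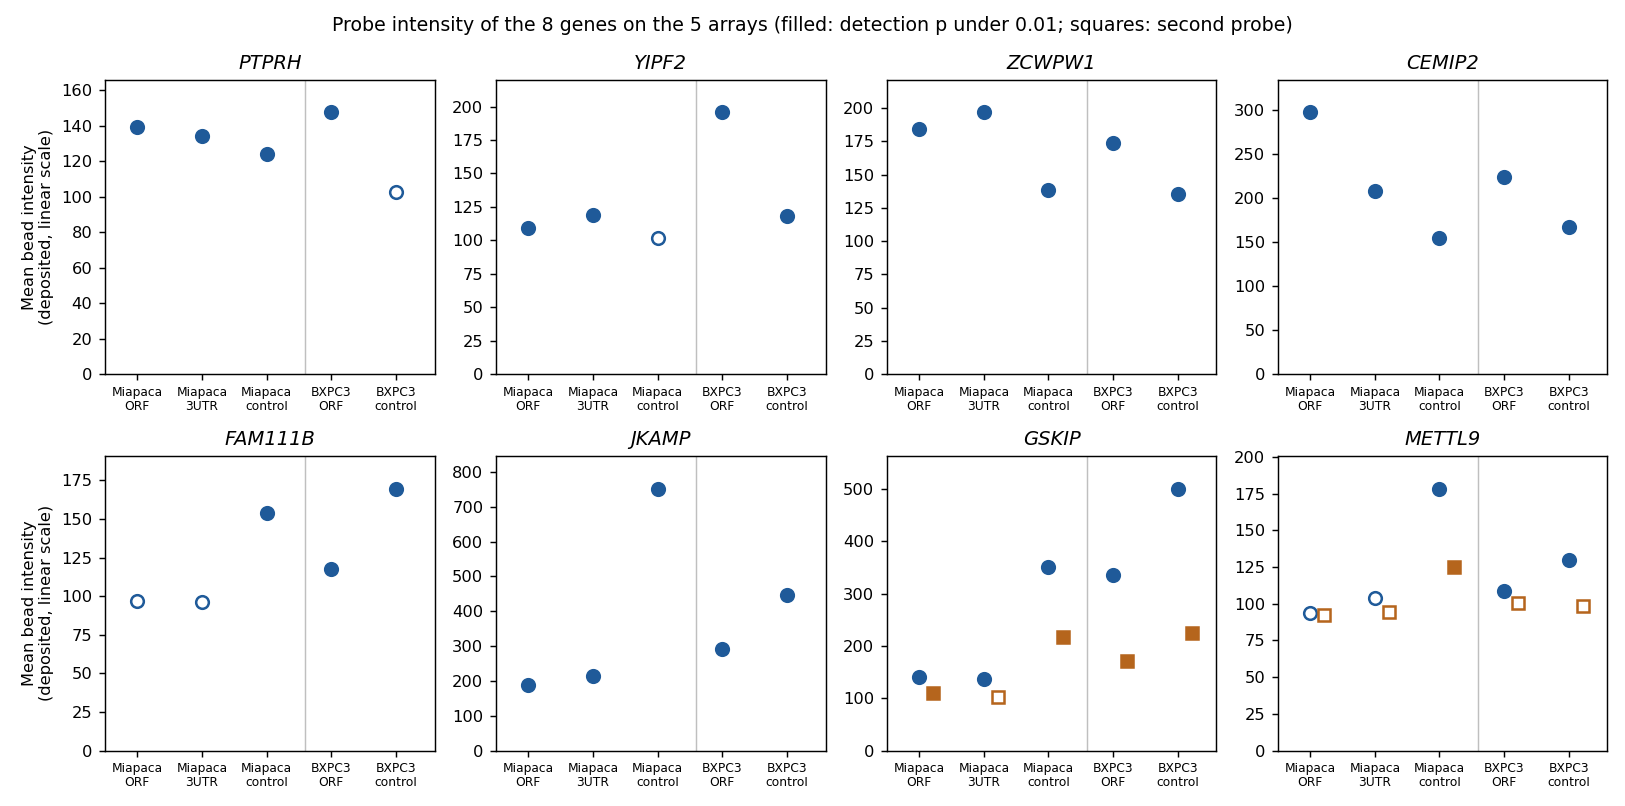
Deposited mean bead intensity (vertical axes, linear from 0) of each probe on the 5 arrays, siRNA arrays left of the control of their line. Filled marks are detected at p under 0.01 and open marks are not; squares show the second probe of GSKIP and METTL9. In the upper row the Miapaca control reads lower than both siRNA arrays, and in the lower row it reads higher.

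Among the genes for membrane proteins, CEMIP2, PTPRH and YIPF2 were higher with siRNA and JKAMP was lower. CEMIP2, on chromosome 9, read 297 and 208 on the Miapaca ORF and 3UTR arrays and 155 on the Miapaca control array, and 224 on the BXPC3 ORF array against 167 on the BXPC3 control array. It was detected on all 5 arrays, and both control arrays read lowest. After normalization its log2 difference from control was 2.19 (4.57-fold) for the ORF siRNA of Miapaca, 1.52 (2.88-fold) for its 3UTR siRNA, and 0.81 (1.76-fold) in BXPC3. The ORF array exceeded the 3UTR array of Miapaca by 0.67 on the log2 scale, the widest gap between the siRNAs among the 8 genes. For the brightest probes of the other genes that gap lay between −0.50 and 0.09, and neither array detected FAM111B or METTL9.

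PTPRH removes phosphate from tyrosines at the cell surface, and in mouse it is known from the microvilli of intestinal cells. Its probe, for a gene on chromosome 19, read 139 and 134 on the Miapaca ORF and 3UTR arrays, against 124 on the Miapaca control array. In BXPC3 it read 147 with the ORF siRNA and 103 with the control siRNA, where it was not detected. The deposited detection p-value there was 0.0559. Both control arrays read lowest, with narrow gaps on the deposited scale in Miapaca. Normalized log2 differences were 1.10 and 1.02 in Miapaca with the ORF and 3UTR siRNA, and PTPRH was at least 2.67-fold higher in BXPC3. In Miapaca the deposited readings stood at 1.12 and 1.08 times the control, beside 2.14-fold and 2.02-fold after background correction and normalization.

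YIPF2, also on chromosome 19, belongs to a family of Golgi proteins that work in vesicle traffic. It read 110 and 119 on the Miapaca ORF and 3UTR arrays and 102 on the Miapaca control array, where it was not detected. In BXPC3 it read 196 with the ORF siRNA and 118 with the control siRNA. Each siRNA array read above the control of its line, and the BXPC3 control reading lay between those of the Miapaca siRNA arrays. The differences were at least 1.65-fold and at least 2.25-fold in Miapaca, and 3.04-fold (log2 1.60) in BXPC3, where it ranked 6 from the top among 11252 genes. Whether YIPF2 reached 2-fold with the ORF siRNA in Miapaca cannot be read, since that size is a lower bound.

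ZCWPW1, on chromosome 7 and best known from germ cells, was detected on all 5 arrays. It read 184 and 197 on the Miapaca ORF and 3UTR arrays, against 138 on the Miapaca control array, and 174 on the BXPC3 ORF array against 136 on the BXPC3 control array. All 3 siRNA arrays read higher than both control arrays. Log2 differences were 1.53 (2.88-fold) and 1.73 (3.32-fold) in Miapaca and 0.79 (1.73-fold) in BXPC3. With the 3UTR siRNA it ranked 16 from the top among 10865 genes.

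FAM111B was lower in all 3 comparisons and below detection on both Miapaca siRNA arrays. Its probe, for a gene on chromosome 11, read 97.1 and 96.3 on the Miapaca ORF and 3UTR arrays, where it was not detected, against 154 on the Miapaca control array. In BXPC3 it read 117 with the ORF siRNA and 170 with the control siRNA, detected on both. The controls were the 2 brightest readings of the 5. FAM111B was at least 2.40-fold and at least 2.37-fold lower in Miapaca with the ORF and 3UTR siRNA, and 2.36-fold lower in BXPC3, a rank of 11 from the bottom there. The Miapaca sizes are set by the floor of detection, so how alike the 3 differences are cannot be read.

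JKAMP, on chromosome 14, kept the smallest share of its control reading among the 8 genes. It read 187 and 213 on the Miapaca ORF and 3UTR arrays and 751 on the Miapaca control array, and 290 on the BXPC3 ORF array against 448 on the BXPC3 control array. It was detected throughout, with both control arrays highest. Log2 differences were −1.86 (3.63-fold lower) and −1.51 (2.86-fold lower) in Miapaca and −0.82 (1.76-fold lower) in BXPC3. On the deposited scale the Miapaca siRNA arrays held 0.249 and 0.283 of the control reading, and the mean over all probes stood at 355 and 344 against 463.

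GSKIP, likewise on chromosome 14, was measured by 2 probes, and they went the same way in all 3 comparisons. The brighter one read 141 and 137 on the Miapaca ORF and 3UTR arrays, against 351 on the Miapaca control array, and 335 on the BXPC3 ORF array against 501 on the BXPC3 control array. Its log2 differences were −1.33, −1.38 and −0.71. The second probe read 111 and 103 against 216 in Miapaca, and 172 against 225 in BXPC3. Its differences were −1.37 with the ORF siRNA, at least 3.47-fold lower with the 3UTR siRNA, and −0.65 in BXPC3. Both probes were highest on the 2 control arrays. They were read on the same RNA and are no replicates, and 6 of the 8 genes had no second probe.

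METTL9, on chromosome 16, was measured by 2 probes that were not detected on the same arrays. Its probe for NM_016025 read 93.8 and 104 on the Miapaca ORF and 3UTR arrays, not detected on either, and 178 on the Miapaca control array. In BXPC3 the reading was 108 with the ORF siRNA and 130 with the control siRNA. METTL9 was at least 3.22-fold and at least 2.43-fold lower in Miapaca and 1.73-fold lower (log2 −0.79) in BXPC3. The probe for NM_001077180, another transcript of the gene, was detected on the Miapaca control array alone, at 125. It was at least 1.57-fold and at least 1.51-fold lower in Miapaca, and in BXPC3 it was below detection with both siRNAs, at 101 with the ORF siRNA and 98.3 with the control siRNA, so the BXPC3 difference rests on 1 probe.

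**Figure D2:**
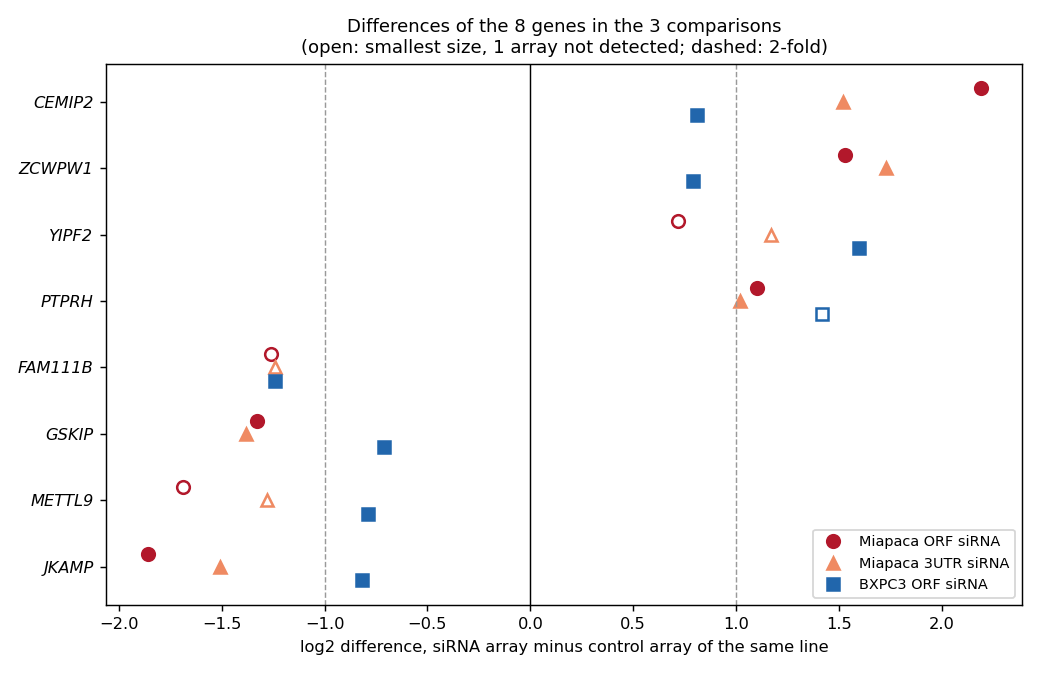
Log2 difference of each gene's brightest probe, siRNA array minus the control array of its line (horizontal axis), for the 3 comparisons. Open marks give the smallest size where 1 of the arrays was not detected. The dashed lines mark 2-fold, which 7, 8 and 3 of the 8 genes reached with Miapaca ORF, Miapaca 3UTR and BXPC3 ORF siRNA.

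The 8 genes were not alone at the top of such a ranking. Among the 3771 genes with 1 direction, ordered by the smallest of their 3 measured log2 differences, the members held ranks 2 (FAM111B), 4 (PTPRH), 19 (JKAMP), 20 (CEMIP2), 23 (METTL9), 25 (ZCWPW1), 27 (YIPF2) and 41 (GSKIP). Their smallest measured differences ran between 1.24 and 0.71, and that of YIPF2 was taken against a control array where it was not detected. Genes outside the group that ranked among them included H2BC5, an H2B histone, at rank 1 with 3.38, 1.45 and 1.64 by its brightest probe and 1.65, 0.14 and 1.11 by another detected on all 5 arrays. TRIB3, a pseudokinase of the amino acid stress response, was at rank 3 with 1.16, 1.49 and 1.19. SESN2, a stress-induced sestrin, was at rank 5 with at least 1.24 and at least 1.36 in Miapaca and 0.96 in BXPC3. In all 4 genes were at least 2-fold to 1 side in each comparison by their measured values, which is 0.0426% of 9399, and 2 of them are members. At 1.5-fold there were 109 such genes, or 1.16%, among them all 8 members.

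The spread over the 3 differences can be read for the 4 genes whose brightest probe was detected on all 5 arrays. It was 0.67 for GSKIP, 0.94 for ZCWPW1, 1.04 for JKAMP and 1.38 for CEMIP2 on the log2 scale. These 4 genes and METTL9 had their smallest difference in BXPC3, and PTPRH had its largest there. For YIPF2 and FAM111B the order of the lines cannot be read, since their Miapaca differences are lower bounds. Whether the lines differ could not be tested with 1 array each.

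**Figure D3:**
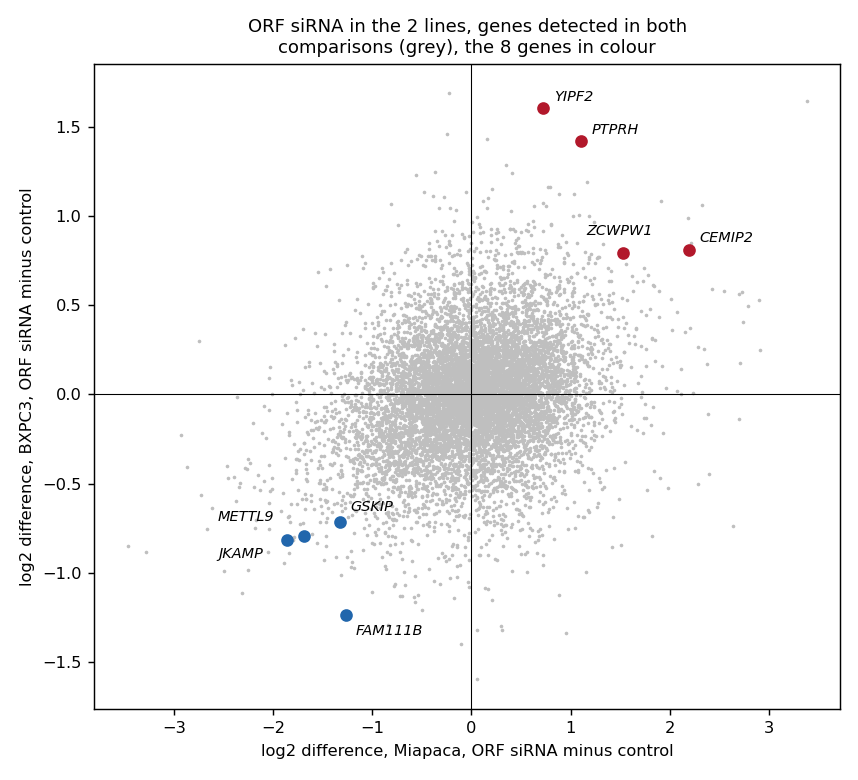
ORF siRNA array minus control array on the log2 scale, for Miapaca (horizontal) and BXPC3 (vertical), from 4 separate arrays. Grey points are genes detected on at least 1 array of each comparison, and the 8 genes are coloured. Lower bounds are plotted unmarked, for FAM111B, METTL9 and YIPF2 in Miapaca and PTPRH in BXPC3. The members were chosen by these differences. PTPRH and YIPF2 lie far along the BXPC3 axis and CEMIP2 and JKAMP far along the Miapaca axis.

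The difference between the lines under control siRNA was not part of the rule, although both control arrays entered the differences that it used. There the BXPC3 array differed from the Miapaca array by at least 2-fold for 1 of the 8 genes, beside 29.1% of 11825 genes compared. That gene was GSKIP, 2.24-fold higher in BXPC3 by its brighter probe (501 against 351 on the deposited scale) and 1.42-fold higher by the other. The brighter probe stood at 1.16 on the log2 scale, and at 0.71 with median scaling, 0.91 without background correction and 0.95 with the authors' values, all under 2-fold. FAM111B stood at 0.62 and CEMIP2 at 0.56, both higher in BXPC3, and ZCWPW1 at 0.25. METTL9 stood at −0.60 and JKAMP at −0.36. YIPF2 was at least 1.69-fold higher and PTPRH at least 1.43-fold lower in BXPC3. The 4 genes that were higher with siRNA and the 4 that were lower each fell on both sides of this comparison.

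By the distance between their 3 differences, some genes lay close to single members among 8252 genes detected on all 5 arrays. FANCB, of the Fanconi anaemia core complex, was nearest to GSKIP at a distance of 0.08, with −1.34, −1.46 and −0.73, and PALD1 followed at 0.23. MAD2L1, a spindle checkpoint gene, was nearest to both JKAMP and METTL9, at 0.31 and 0.27, with −1.90, −1.35 and −0.55. AP1S2 was next for JKAMP at 0.37. ZNF670 was nearest to FAM111B at 0.40 and second for METTL9 at 0.33, and RAVER2 was second for FAM111B at 0.51. SLC4A7, a bicarbonate transporter, was nearest to PTPRH at 0.50 and to YIPF2 at 0.61, and TRIB3 was second for both, at 0.53 and 0.62. For ZCWPW1 they were ERCC2 at 0.54 and NEDD4 at 0.56, and for CEMIP2 they were H2BC12 and SNORA2B, both at 0.54. Other probes detected on all 5 arrays gave −1.40, −1.11 and −0.43 for FANCB, −1.91, −0.52 and −0.66 for MAD2L1, and 1.85, 1.08 and 0.79 for SLC4A7. Such probes also gave −1.98, −2.09 and −0.57 for AP1S2, and 1.86, 1.02 and 0.47 for H2BC12. NEDD4 had another probe at −0.25 in BXPC3. For FAM111B, PTPRH, YIPF2 and METTL9 the distances rest on readings below detection on at least 1 array. Likeness here covers 3 differences that share arrays and says nothing of function.

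Most listed DNA replication genes lay below control by their brightest probes, as FAM111B did. The list was chosen with earlier results of these data known, so its counts and medians are a description and carry no test. Its 17 genes were the FAM111B paralog FAM111A and genes of the replication clamp, clamp loader, helicase and polymerases, with FEN1 and LIG1. Of these 16 lay below control in Miapaca under the ORF siRNA, beside 48.6% of all genes. The count was 15 under the 3UTR siRNA, beside 49.9%, and 16 in BXPC3, beside 50.6%. The list medians were −0.54, −0.71 and −0.39, beside 0.02, 0.00 and −0.01 for all genes. At least 2-fold lower were 2 genes, 4 genes and 0 genes in that order, beside 5.51%, 4.64% and 0.462% of all genes. PCNA, the sliding clamp, had −1.52, −1.46 and −0.39 by its brightest probe, while another detected probe gave 0.26, −0.16 and −0.33. POLD1, a replicative polymerase, had −0.54, −1.56 and −0.53, and LIG1, the DNA ligase of replication, had −1.08, −1.17 and −0.16. MCM3, level with LIG1 to 2 decimals for the 3UTR siRNA, had −0.62, −1.17 and −0.29. FAM111A itself stood at 0.25, 0.56 and −0.30 by its brightest probe and −0.48, 0.28 and −0.17 by another, so its side of the control with the Miapaca ORF siRNA depends on the probe. RFC2, of the clamp loader, stood at −0.90, −0.90 and −0.91 by its brightest probe and 0.44, 0.58 and −0.07 by another. With median scaling every list gene lay below control in Miapaca by its brightest probe. The median of all genes also lay below control under that scaling, at −0.40 and −0.46, so nothing is read from that count.

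The relatives and listed partners of PTPRH and YIPF2 lay on both sides of control. Of 18 other receptor phosphatase list genes on the array, 4, 5 and 10 were measured with Miapaca ORF, Miapaca 3UTR and BXPC3 ORF siRNA, and the only one past 2-fold was PTPRU, at least 2.03-fold higher with the 3UTR siRNA. The medians were 0.06, 0.23 and −0.09. The YIP family list also held RAB5A, RAB5B, RAB5C and RAB22A, which are listed as partners and are not of the family. Of its 12 genes 11 were measured, with medians of −0.37, 0.22 and 0.10 over family and partners together. YIPF6, a known partner of YIPF2, stood at 0.61, 0.82 and 0.43 and YIPF1 at 0.20, 0.18 and 0.07, another YIPF1 probe giving 0.45, 0.45 and −0.31. RAB22A stood at −0.97, 0.57 and −0.45 and RAB5A at −0.81, 0.47 and −0.24. With the Miapaca ORF siRNA 6 genes of this list lay below control and 5 above, by their brightest probes. RAB5A, RAB5C and RAB22A were among those below and RAB5B among those above, so the count is not one of the family alone. YIF1A, another Golgi member, was 2.17-fold higher with the 3UTR siRNA and the only one past 2-fold. Of all genes 10.6%, 8.86% and 1.09% passed 2-fold in the 3 comparisons, so nothing is read from the counts of these short lists.

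The partners of JKAMP and CEMIP2 were mixed. Of 15 list genes of endoplasmic reticulum degradation and JNK signalling on the array, 13 were measured in each siRNA comparison, with medians of −0.00, 0.26 and −0.00. MAP2K4, a kinase upstream of JNK, was the only one past 2-fold. Its brighter probe stood at −2.25 for the ORF siRNA of Miapaca and −0.47 for the 3UTR siRNA, and another at −1.88 and 0.17, and neither was detected in BXPC3. RNF5, a ubiquitin ligase that binds JKAMP, stood at −0.91, −0.27 and −0.25. Of 11 hyaluronan genes 5 were measured, with medians of 0.06, 0.30 and −0.15. The hyaluronidase relative CEMIP was not detected on any array. CD44, the hyaluronan receptor, stood at −0.19, −0.45 and −0.11 by its brightest probe and −0.60, −0.92 and 0.29 by another detected on all 5 arrays. HMMR, a hyaluronan-binding spindle protein, stood at −1.07, −1.08 and −0.56, the only one past 2-fold, and at −1.36, −1.61 and −0.71 by its other probe. The counts past 2-fold stand beside 10.6%, 8.86% and 1.09% of all genes, and nothing is read from them.

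Of 18 GSK3 and protein kinase A genes listed for GSKIP, 14 were measured in Miapaca and 12 in BXPC3, with medians of −0.27, −0.42 and 0.06. GSK3B, the kinase that GSKIP binds, stood at 0.85, 0.17 and 0.08 while GSKIP was lower in each comparison. Past 2-fold in Miapaca were 3 kinase anchoring genes. AKAP1 stood at −1.82 and AKAP11 at −1.29 with the 3UTR siRNA, another AKAP11 probe giving −0.83, and AKAP13 at 1.03 with the ORF siRNA. Lists for METTL9 (8 or 9 of 10 histidine methylation genes measured) and ZCWPW1 (3 to 6 of 10 CW domain and meiotic genes) held 0 genes past 2-fold in the 3 comparisons. Their medians were 0.21, 0.14 and 0.13 for the histidine methylation list, and 0.13, −0.46 and 0.00 for the CW domain and meiotic genes. The histidine methylation list held SETD3, METTL18 and CARNMT1 beside genes for proteins that are not methyltransferases, such as ACTB and RPL3. The median of −0.46 was the value of DMC1, a meiotic gene of the other list. Of all genes 10.6%, 8.86% and 1.09% passed 2-fold in the 3 comparisons. With lists this short nothing is read from the counts past 2-fold in this paragraph. With median scaling the Miapaca medians of every list lay below 0, beside −0.40 and −0.46 for all genes.

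Sequence around the start sites was set beside these values with RefSeq start regions of GRCh38.p14, each 250 bases before to 50 after a start. Of the 8 genes 7 matched by symbol, FAM111B being the other, with 10 start regions in all. Of these 7 genes 5 had a neighbour on the opposite strand that starts within 1000 bases and runs away from it. Counted per start and with overlapping neighbours included, a start on the other strand lay within that distance for 23.0% of protein-coding starts. The 5 genes were counted over any of their start regions, so the shares differ in unit. ZCWPW1 starts 87 bases from MEPCE, JKAMP 109 bases from L3HYPDH, YIPF2 172 bases from TIMM29 and GSKIP 185 bases from ATG2B, all protein-coding, and METTL9 192 bases from a long noncoding RNA gene with no probe named here. Of 9 motifs searched on both strands, the ETS core CCGGAAG occurred in 3 of the 7 genes, counting any of a gene's start regions, beside 10.3% of all 35116 start regions. The sites of YIPF2 and JKAMP lie between their paired starts. A GC box of JKAMP lies there as well, so that place is not particular to the ETS core. For METTL9, with more than 1 start region, the paired start was not recorded. The 3 ETS sites are printed with the motif in capitals, 5′ to 3′ on the gene's own strand. They belong to YIPF2 (chr19:10928713-10928736, minus strand), JKAMP (chr14:59484441-59484464, plus strand) and the second listed start of METTL9 (chr16:21599525-21599548, plus strand).
YIPF2: caactttaCCGGAAGtggcttccc
JKAMP: gcctaaacCCGGAAGcgagggagg
METTL9: ttccgcggCCGGAAGggaaggggg

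YIPF2 was higher and JKAMP and METTL9 were lower with siRNA, so these letters did not sort the genes by direction. The GC box GGGCGG occurred in 6 of 7, beside 45.0% of all start regions, and CCAAT in 4 of 7, beside 34.6%. The E2F core TTCCCGC was found for PTPRH alone, where it overlaps the GC box, beside 6.55%. The cell cycle element TTTGAA was found for METTL9 alone, beside 15.2%. CACGTG, TGACGTCA, TGATGNAA and TATAAA were found in none of the 7, beside 7.26%, 1.85%, 3.62% and 11.5%. A match is a description of letters, and the absence of one says only that they are not in this window.

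The neighbours measured beside these start regions did not keep to the side of their partners in all 3 comparisons. TIMM29, a subunit of mitochondrial protein import, read 295 and 361 on the Miapaca ORF and 3UTR arrays and 596 on the Miapaca control array, and 294 on the BXPC3 ORF array against 310 on the BXPC3 control array. Its log2 differences were −0.52, −0.10 and −0.09 where YIPF2 was higher in each. MEPCE, which caps the 7SK RNA, stood at 0.93, 0.07 and −0.36 beside ZCWPW1. L3HYPDH, a dehydratase of a proline derivative, stood at −0.74, 0.30 and 0.03 by 1 probe and 0.07, 0.89 and −0.12 by another, beside a lower JKAMP throughout. ATG2B was not detected on any of the 5 arrays.

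**Figure D4:**
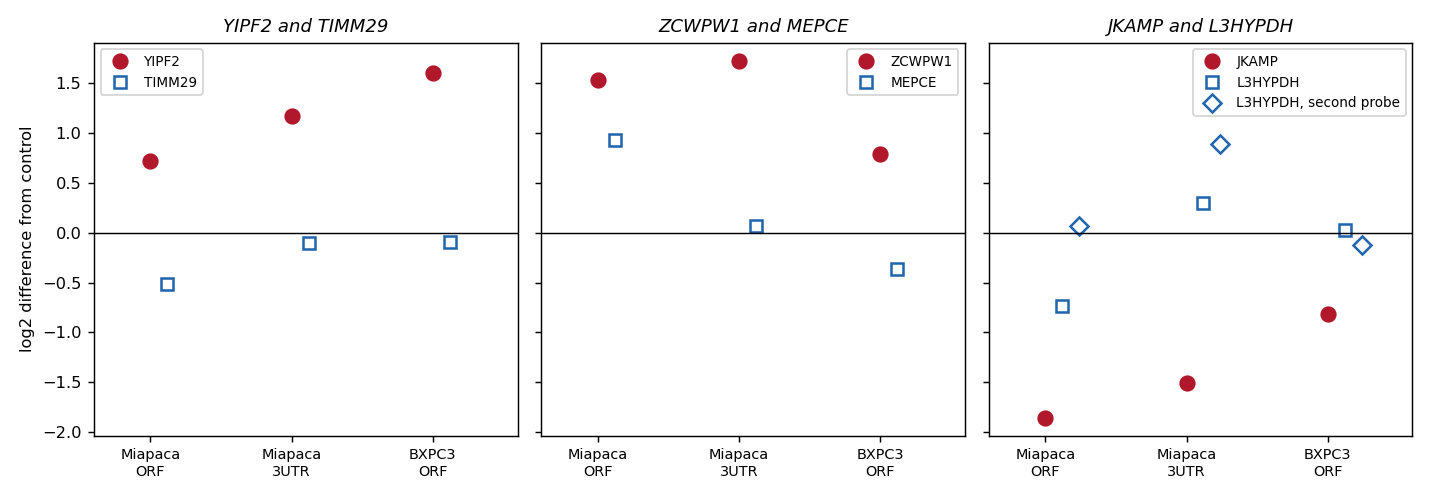
Log2 difference from control (vertical axis) in the 3 comparisons for YIPF2, ZCWPW1 and JKAMP (filled) and the neighbours that start close by on the other strand (open). The Miapaca marks of YIPF2 are lower bounds, plotted unmarked. TIMM29 lies below 0 where YIPF2 lies above it, MEPCE crosses 0 between the lines, and the 2 probes of L3HYPDH lie on both sides of 0.

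Size depended on how weak signals were treated. Without background correction JKAMP and CEMIP2 stayed past 2-fold with the ORF siRNA in Miapaca and JKAMP with the 3UTR siRNA, and none of the 8 in BXPC3. The authors' own normalized values gave the same counts. On that scale PTPRH stood at 0.43, 0.38 and 0.53, YIPF2 at 0.26, 0.41 and 0.75, and FAM111B at −0.44, −0.44 and −0.56. All 8 genes kept their direction under both.

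**Figure D5:**
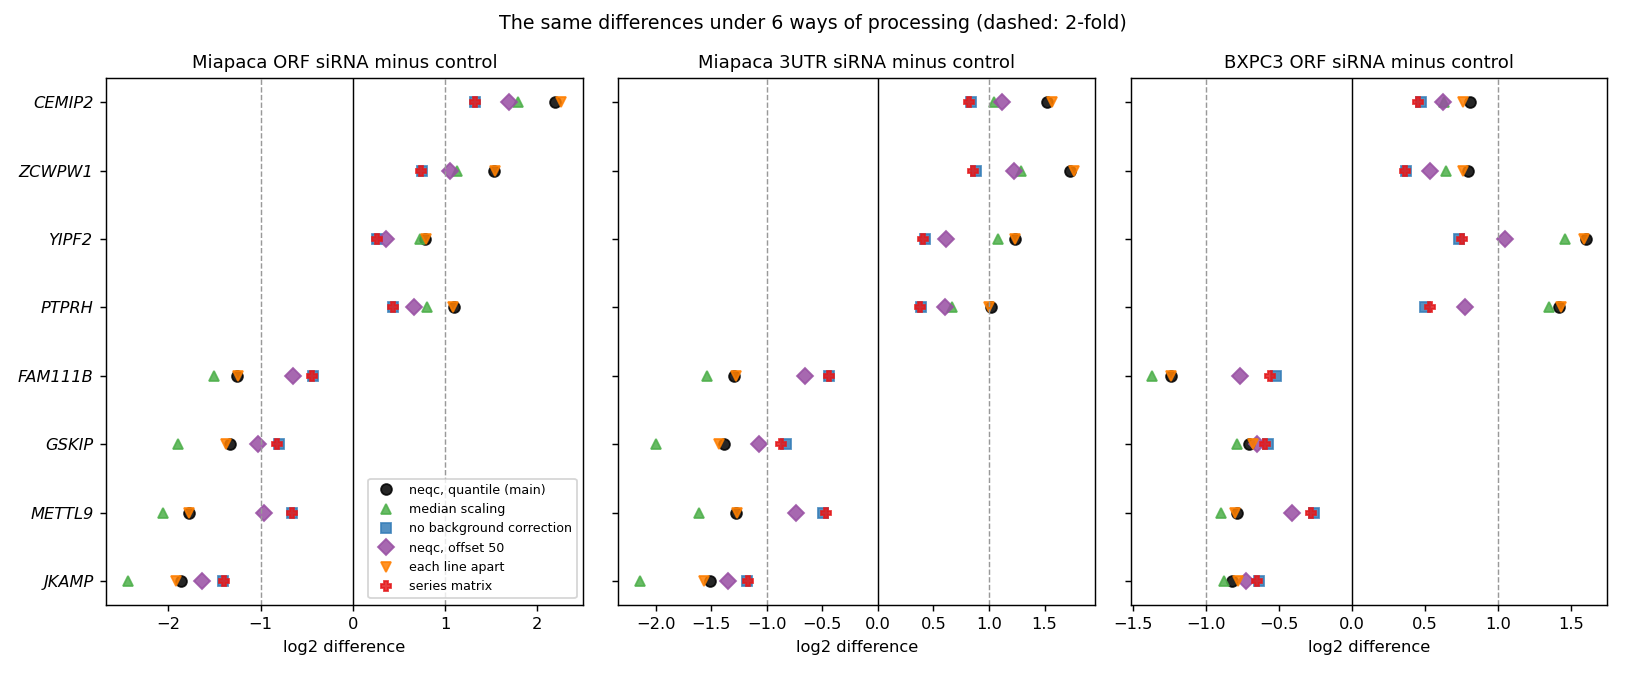
Log2 difference of each gene (horizontal axes) in the 3 comparisons under 6 ways of processing the same arrays. Every mark stays on its gene's side of 0, and the marks without background correction and from the authors' normalized values lie nearest to 0.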

How the data were processed

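Biotin-labelled cRNA from 5 cultures was hybridised to Illumina BeadChips, per the labels' protocols. The authors deposited mean bead intensity per probe in a table named as not normalized, whose array means differ, with a detection p-value per probe and array. How either was computed is a step the labels and headers do not record. The authors' deposited series matrix holds intensity on a linear scale after a normalization that is not described. Of 48107 probes, 1 was left out for a missing value. The neqc function of limma (version 3.58.1, under R 4.3.3) took background from the detection p-values, applied normexp, added 16, normalized by quantiles and returned log2 values. Everything else ran in Python (3.11.15). Symbols came from the platform annotation, updated through RefSeq accessions for 29081 probes. The brightest probe stood for a gene. A gene entered a comparison if detected on at least 1 of its 2 arrays. Where the dim array was not detected, the higher of its own value and that array's lowest detected signal was used, and the size is given as "at least". With 1 array per group no test was run. The comparison was tested on simulated data, with changes set only in signals well above the detection floor. That test left out background correction and normalization, so it does not cover the weak signals of several members. Alternatives changed background correction, offset, scaling, lines normalized together, detection filter, choice of probe, fold and source of values. Members, lists, motifs and the neighbour search were chosen with earlier results of these data known. Named genes were all probes of the members, the 2 nearest genes per member, the 3 best-ranked other genes and up to 3 genes past 2-fold per list. RFC2, FAM111A, MCM3, partners of members and neighbours were named beside these after their values were seen.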

Additional observations from a re-analysis of the deposited data

How the results depend on the processing

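All 8 genes kept 1 direction over the 3 comparisons under the 8 alternatives that could give that count. The direction was used to choose the genes. Changes of the detection filter reused the same values, so they could not alter a direction. The mean over detected probes could alter it only for GSKIP and METTL9. Of 150 single probe differences recomputed 0 changed sign and 51 crossed 2-fold or shifted by over 1.5 times. Counts past 2-fold held within 1.5 times in the 3 siRNA comparisons with each line normalized apart, detection p under 0.05, no filter on detection, median scaling and the mean over detected probes. Without background correction, and with the series matrix values, they were 2 in Miapaca ORF, 1 in Miapaca 3UTR and 0 in BXPC3 ORF siRNA. With an offset of 50 they were 4, 4 and 1. At 1.5-fold all 8 passed in BXPC3 ORF siRNA. For BXPC3 over Miapaca under control siRNA the count of 1 became 0 with median scaling, no background correction, the series matrix or the mean over detected probes, and 4 at 1.5-fold. Median scaling shifted the median of all genes to −0.40, −0.46 and −0.11 in the 3 siRNA comparisons, and the split of all genes past 2-fold in Miapaca ORF to 188 higher and 1822 lower, against 553 and 600. The split was 85 and 1980 in Miapaca 3UTR, against 459 and 504, and 44 and 90 in BXPC3 ORF, against 71 and 52. Relative to that shift all 8 genes kept their direction. All-gene counts without background correction were 146 higher and 199 lower, 96 and 141, and 5 and 1 in the 3 siRNA comparisons; with an offset of 50 they were 249 and 307, 184 and 250, and 12 and 3; with the series matrix 164 and 197, 104 and 147, and 6 and 1. The replication list kept a median below 0 throughout, at −1.03 to −0.50, −1.29 to −0.60 and −0.46 to −0.34. FAM111B, PTPRH, YIPF2 and METTL9 were below detection on 1 or 2 of the 5 arrays by their brightest probes, which leaves lower bounds there; the lowest detected intensity was 96.3 to 104. The cause of these changes was not tested. A direction count at 1.5-fold, and lines normalized apart for the comparison between lines, give no value. No paired analysis was possible because each group holds 1 array.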
